A study of Mus musculus with 15 samples.

Results

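Potassium channel genes were described across sorted cells of the embryonic mouse thalamus. They were taken as every gene whose row on the array names exactly 1 symbol of a potassium channel family (Kcna, Kcnb, Kcnc, Kcnd, Kcne, Kcnf, Kcng, Kcnh, Kcnj, Kcnk, Kcnma, Kcnmb, Kcnn, Kcnq, Kcns, Kcnt, Kcnu, Kcnv or Kcnip), without symbols ending in "os". This gave 88 genes of 22180 in the table, on 95 rows, and the row with the highest mean was used for the 7 genes with several rows. Of the 88 genes, 81 had a mean above the lowest 25% of genes and were tested.

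The cells came from embryos of the genotype Gbx2CreER-IRES-EGFP/+::R26lsl-tdTomato/+ on a c57/BL6 background. In these embryos the Gbx2 locus, active in thalamic neurons, expresses EGFP (green) and a tamoxifen-dependent Cre, and recombination at the Rosa26 locus then labels cells and their descendants with tdTomato (red). Tamoxifen (4 mg) was given to pregnant females, on E9 where cells were later taken at E18.5 and on E9.5 where they were taken at E14.5. Cells were isolated by FACS into E18.5 double labeled, E18.5 red, E18.5 green, E14.5 red and E14.5 green populations, with 3 biological replicates in each of the 5 groups. All groups carry both transgenes, all received tamoxifen, and the sort gates are not given in the sources used here. The replicates are called biological, but the number of embryos behind each is not given in the sources used here.

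Potassium channels set the resting potential of a neuron, end its action potentials and limit how often it fires. Voltage-gated families (Kcna to Kcnd, Kcnh, Kcnq) open on depolarization, inward rectifiers (Kcnj) and two-pore leak channels (Kcnk) act near rest, and the Kcnma, Kcnn and Kcnt families open with calcium or sodium. Other members make no current alone: Kcnf, Kcng, Kcns and Kcnv proteins join other pore subunits, and Kcnab, Kcne, Kcnmb and Kcnip proteins are accessory subunits. In thalamic relay neurons, leak and A-type potassium currents help to set whether a cell fires in bursts or single spikes.

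Values are log2 signals, and a gene's level is compared only with its own level in other groups. In bulk RNA of sorted cells, a smaller share of cells that express a gene and less RNA per cell cannot be told apart. Across the 15 arrays the mean of all values was 6.17 to 6.19 at E18.5 and 5.63 to 5.65 at E14.5, so stages were compared after quantile normalization, and a change between stages was called a rise only where it passed with values as deposited, median-centred and quantile-normalized alike. Stage, day of tamoxifen and any separate normalization of the stages cannot be told apart. Replicate 1 of the E18.5 double labeled cells and replicate 1 of the E18.5 red cells had a narrower spread of values (SD 1.31 and 1.34) than the other E18.5 arrays (1.44 to 1.51). As a check of the tissue, 7 thalamic genes averaged 9.12 to 9.44 per array in E18.5 double labeled cells, 8.72 to 8.92 in E18.5 red cells, 9.40 to 9.53 in E18.5 green cells, 8.75 to 8.84 in E14.5 red cells and 9.05 to 9.15 in E14.5 green cells, as deposited. After quantile normalization, 3 of the 7 were lower at E18.5 than at E14.5 in red cells (Gbx2 by -1.61, Lhx2 by -0.74 and Tcf7l2 by -0.39), and 1 in green cells (Lhx2 by -0.89).

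Of the 88 genes, 26 encode voltage-gated pore subunits, 10 silent modifiers, 12 auxiliary subunits of the Kcnab, Kcne and Kcnip families, 14 inward rectifiers and 13 two-pore leak channels. Another 12 form the group called calcium- or sodium-activated, in which the Kcnmb subunits and Kcnu1 were placed by family name. The remaining member, Kcnq1ot1, is the long non-coding RNA of the imprinted Kcnq1 region. The 7 genes that were not tested were Kcne3, Kcnj1, Kcnj2, Kcnj15, Kcnk5, Kcnu1 and Kcnv2, with values between 4.48 and 5.86 on every array.

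Many potassium channel genes were higher at E18.5 than at E14.5. Under all 3 scalings, 21 of the 81 genes rose in red cells and 26 rose in green cells, 25.9% and 32.1% of the genes tested, while 10.6% and 13.3% of all 16635 genes tested did so. These counts include risers, named below, that were tested only because of their E18.5 levels. The same filter was applied to all genes. No member fell under all 3 scalings in either colour, while 1.16% of all genes did in red cells and 2.49% in green cells. With values as deposited, E18.5 exceeded E14.5 by a median of 0.596 in red and 0.605 in green cells. Falls could therefore seldom pass on that scaling, where 0 members were lower, so this count says little about falls. After quantile normalization alone, 23 members were higher and 4 lower in red cells (28.4% and 4.94%, against 13.7% and 15.6% of all genes). In green cells 31 were higher and 7 lower (38.3% and 8.64%, against 16.8% and 18.9%). In both directions together, 27 members passed in red cells (33.3%, against 29.3% of all genes) and 38 in green cells (46.9%, against 35.7%). The median difference over the 81 members was 0.15 in red cells and 0.21 in green cells, where the median over all genes was -0.03 in each.

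**Figure D1:**
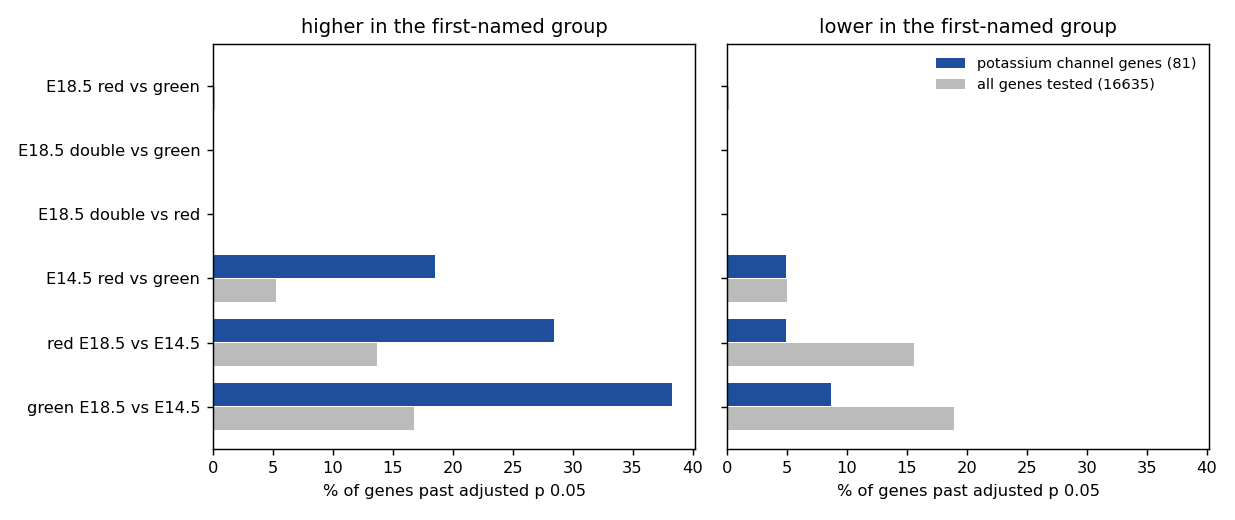
Percent of genes past an adjusted p of 0.05 in limma, separately for genes higher (left) and lower (right) in the first-named group, for the 81 potassium channel genes tested (blue) and all 16635 genes tested (grey). The blue bars exceed the grey ones on the higher side in the E14.5 comparison and in both stage comparisons, while no member passed in the 3 comparisons within E18.5.

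The 2 lists of risers shared 17 genes, 17 of the 21 in red cells and 17 of the 26 in green cells; the 2 comparisons share no array. They were Kcna4, Kcna6, Kcnb2, Kcnc4, Kcnd2, Kcnd3, Kcnq3 and Kcnq5 among the voltage-gated pores, the silent modifiers Kcns1, Kcns2 and Kcnv1, the auxiliary subunit Kcnip4, the inward rectifiers Kcnj3, Kcnj9 and Kcnj16, the leak channel Kcnk18 and the sodium-activated Kcnt1. Of the members, 21.0% rose in both colours, against 7.71% of all genes tested. A further 9 members passed in green cells alone (11.1%, against 5.55% of all genes) and 4 in red cells alone (4.94%, against 2.84%). Of these 13 genes, Kcnab1, Kcnip1 and Kcnn1 passed the interaction test given below, and the other differences between colours did not pass. Some risers had deposited means of 4.63 to 5.05 in both E14.5 groups, under the filter cut of 5.07. They were Kcnq5, Kcns1, Kcnj16 and Kcnk18, and among risers in red cells alone Kcnh3, Kcnj10 and Kcnk9. These genes were tested only because of their E18.5 levels.

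Among the voltage-gated pores, 9 of 26 rose in red cells and 11 of 26 in green cells, with a median difference over the 26 genes of 0.25 and 0.35. For this and the other roles and families, the shares over all genes tested were 10.6% in red and 13.3% in green cells. Kcna4, a Shaker-family gene whose channel inactivates quickly, had quantile-normalized values of 8.72, 7.80 and 7.79 in E18.5 red cells, against 5.78, 5.71 and 5.45 in E14.5 red cells. In green cells it had 8.25, 7.46 and 7.86 at E18.5, against 5.73, 5.65 and 5.82 at E14.5. Every E18.5 array lay above every E14.5 array, and the rise was 2.46 ± 0.22 (SE) in red cells and 2.12 ± 0.22 in green cells, 5.49-fold and 4.36-fold, with adjusted p of 2.7e-06 and 4.6e-06. A second, dimmer row that names Kcna4 changed by -0.03 in red and 0.20 in green cells, and with the mean of both rows the rise was 1.26 and 1.15.

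By family, 2 of 8 Kcna genes, the 1 Kcnb gene, 1 of 3 Kcnc genes, 2 of 3 Kcnd genes, 1 of 8 Kcnh genes and 2 of 3 Kcnq genes rose in red cells. In green cells the counts were 3 of 8 for Kcna, 1 of 1 for Kcnb, 3 of 3 for Kcnc, 2 of 3 for Kcnd, 0 of 8 for Kcnh and 2 of 3 for Kcnq. The third Kcnd gene, Kcnd1, was higher after quantile normalization (0.38 in red, 0.36 in green) but did not pass under all 3 scalings.

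Kcnd2, a Shal-family pore of the A-type current of dendrites and cell bodies, rose in both colours, and further in green cells. It had quantile-normalized values of 8.85, 9.24 and 9.24 in E18.5 red cells, against 7.72, 7.48 and 7.64 in E14.5 red cells. In green cells it had 9.69, 9.46 and 9.52 at E18.5, against 6.91, 6.91 and 6.77 at E14.5. The groups did not overlap in either colour, and the rise was 1.5 ± 0.12 in red cells (adjusted p 1.1e-06) and 2.69 ± 0.12 in green cells, or 6.47-fold (adjusted p 3.6e-09).

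The related Kcnd3 had quantile-normalized values of 8.12, 7.53 and 7.42 in E18.5 red cells, against 6.47, 6.61 and 6.62 in E14.5 red cells. It rose by 1.12 ± 0.20 in red cells and by 0.84 ± 0.20 in green cells. Kcnb2, a Shab-family pore of the delayed rectifier current, rose by 1.18 ± 0.17 in red and 1.23 ± 0.17 in green cells. Kcnc4, of the Shaw family of fast repolarizing channels, rose by 1.01 ± 0.21 and 1.15 ± 0.21.

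Kcnq3 and Kcnq5 encode pores of the M-current, a slow current that dampens repetitive firing, and both rose in both colours. Kcnq3 had quantile-normalized values of 8.36, 8.13 and 8.12 in E18.5 red cells, against 7.09, 7.29 and 7.35 in E14.5 red cells, a rise of 0.96 ± 0.10, and it rose by 0.78 ± 0.10 in green cells. Kcnq5 rose by 1.0 ± 0.11 in red and 0.88 ± 0.11 in green cells, and its second row by 0.39 and 0.51. In the Kcnh family, 1 of 8 genes, Kcnh3, rose in red cells (0.39 ± 0.11) and none in green cells under all 3 scalings.

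**Figure D2:**
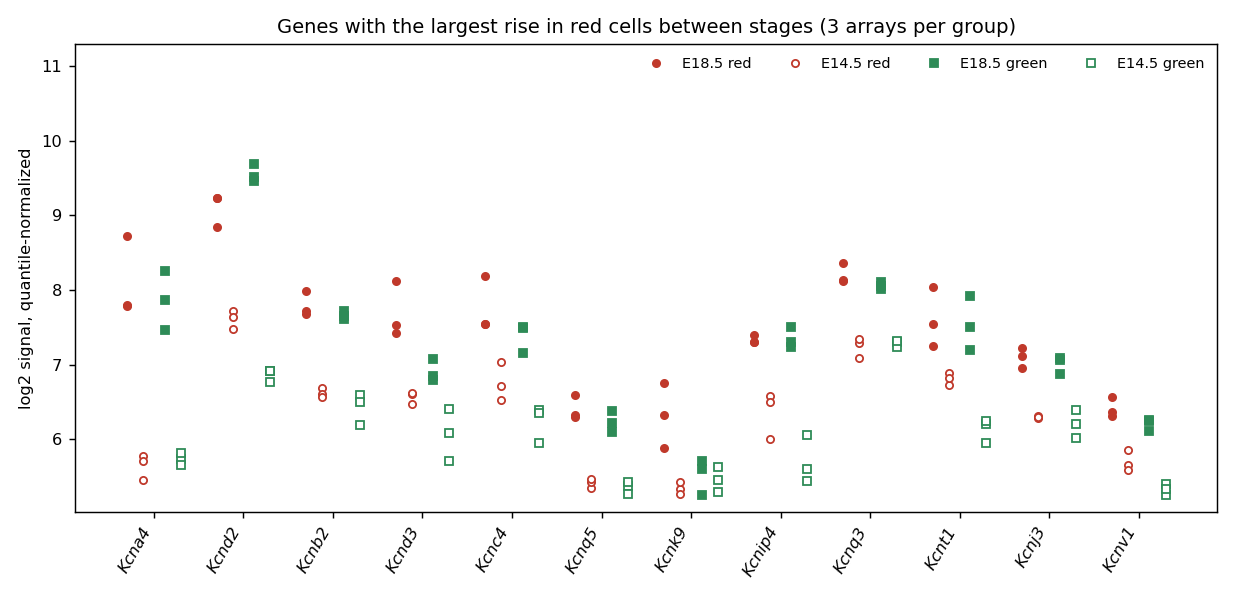
Quantile-normalized log2 signal (vertical axis) on each array for the 12 genes with the largest rise in red cells, with E18.5 (filled) beside E14.5 (open) for red cells (circles) and green cells (squares). Kcna4 and Kcnd2 show the widest gaps between stages, and Kcnk9 is separated by stage in red cells but not in green cells.

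The sequences around the RefSeq start sites (assembly GRCm38.p6) of 4 members are shown for these reasons: Kcna4 and Kcnd2 had the largest changes between stages, Kcnd3 is the Shal-family relative of Kcnd2 that also rose in both colours, and Kcnma1 had the largest difference between colours at E14.5 and rose in green cells. Each run covers 250 bases before to 50 bases after a start, 5′ to 3′ on the strand of the gene, and capitals mark a GC box (GGGCGG, read on both strands, overlaps included) or an E-box (CAGCTG).
Kcna4, chr2:107290339-107290638, plus strand: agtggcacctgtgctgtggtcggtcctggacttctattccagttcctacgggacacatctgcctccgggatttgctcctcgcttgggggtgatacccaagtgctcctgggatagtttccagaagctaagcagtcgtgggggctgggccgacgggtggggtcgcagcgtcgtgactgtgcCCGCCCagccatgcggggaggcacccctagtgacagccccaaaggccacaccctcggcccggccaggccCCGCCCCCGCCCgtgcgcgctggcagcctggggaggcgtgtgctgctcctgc
Kcnd2, chr6:21215096-21215395, plus strand: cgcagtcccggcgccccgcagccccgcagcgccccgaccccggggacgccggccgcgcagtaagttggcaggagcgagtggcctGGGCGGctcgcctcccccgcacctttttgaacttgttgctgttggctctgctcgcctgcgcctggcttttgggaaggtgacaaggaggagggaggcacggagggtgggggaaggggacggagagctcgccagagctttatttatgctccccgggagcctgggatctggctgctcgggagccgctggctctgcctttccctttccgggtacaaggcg
Kcnd3, chr3:105451640-105451939, plus strand: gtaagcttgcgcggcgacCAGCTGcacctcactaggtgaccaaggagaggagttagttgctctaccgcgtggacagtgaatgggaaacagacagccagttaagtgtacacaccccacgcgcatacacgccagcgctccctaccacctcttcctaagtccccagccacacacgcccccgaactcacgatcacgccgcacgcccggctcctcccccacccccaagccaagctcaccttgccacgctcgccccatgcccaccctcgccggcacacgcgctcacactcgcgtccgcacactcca
Kcnma1, chr14:24004156-24004455, minus strand: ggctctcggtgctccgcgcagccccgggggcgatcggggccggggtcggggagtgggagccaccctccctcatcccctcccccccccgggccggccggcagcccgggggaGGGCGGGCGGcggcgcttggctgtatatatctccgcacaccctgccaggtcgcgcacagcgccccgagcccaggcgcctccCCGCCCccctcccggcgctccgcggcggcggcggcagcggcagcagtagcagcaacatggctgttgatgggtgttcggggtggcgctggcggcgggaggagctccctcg

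These 4 windows held 20, 26, 25 and 36 CpG dinucleotides, in the order printed. The Kcna4 and Kcnma1 windows each held 3 GC boxes, Kcnd2 held 1, and Kcnd3 held 1 E-box; none held TATAAA or CCAAT. Start sites of 68 of the 88 members were matched by symbol, with 93 windows in all, and these held a median of 9 CpG against 7 over all 32851 windows. GGGCGG occurred in 48.4% of the members' windows and in 35.7% of all windows, CAGCTG in 24.7% and 16.3%, CCAAT in 30.1% and 37.4%, and TATAAA in 4.3% and 13.6%. The 20 windows of genes higher in red cells at E14.5 held GGGCGG in 35.0% and CAGCTG in 30.0%. The 17 windows of genes that rose with stage in both colours held them in 35.3% and 29.4%. A match describes the letters alone.

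Silent modifiers were represented by 3 risers of 9 tested genes, the same 3 genes in each colour. Kcnv1, which joins Shab-family pores, rose by 0.72 ± 0.17 in red and 0.88 ± 0.17 in green cells, and its red rise was lost when the replicate number was entered as a block (adjusted p 0.11). Kcns2 rose by 0.67 ± 0.13 and 0.55 ± 0.13, and Kcns1 by 0.44 ± 0.12 and 0.66 ± 0.12. The 4 Kcng genes and Kcnf1 did not pass in either colour.

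The auxiliary subunits gave 1 riser of 11 in red cells and 3 of 11 in green cells. Counts this small do not set the group apart from all genes tested, where 10.6% and 13.3% rose. Kcnip4, a calcium-binding partner of Shal-family pores, had quantile-normalized values of 7.40, 7.30 and 7.30 in E18.5 red cells, against 6.00, 6.58 and 6.50 in E14.5 red cells. In green cells it had 7.5, 7.30 and 7.23 at E18.5, against 6.05, 5.60 and 5.44 at E14.5. Its rise was 0.97 ± 0.22 in red cells and 1.65 ± 0.22 in green cells.

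Kcnip1, of the same family, rose by 0.84 ± 0.11 in green cells and changed by 0.14 ± 0.11 in red cells (adjusted p 0.352). Kcnab1, a cytoplasmic subunit that speeds inactivation of Shaker-family pores, rose by 0.62 ± 0.12 in green cells and changed by -0.31 ± 0.12 in red cells (adjusted p 0.062). None of the 4 tested Kcne genes rose.

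Inward rectifiers gave 4 risers of 11 tested genes in each colour. The G-protein-gated genes Kcnj3 and Kcnj9, whose products assemble with that of Kcnj6 in neurons, rose in both colours. Kcnj3 rose by 0.79 ± 0.12 in red and 0.80 ± 0.12 in green cells, with 0.43 and 0.91 on its second row, and Kcnj9 by 0.66 ± 0.10 and 0.48 ± 0.10. Kcnj6 itself rose in green cells, with quantile-normalized values of 6.66, 6.67 and 6.66 at E18.5, against 5.75, 5.02 and 5.55 at E14.5. That rise was 1.23 ± 0.19, while in red cells Kcnj6 differed by 0.41 ± 0.19 (adjusted p 0.128). Kcnj16 and its channel partner Kcnj10 rose by 0.42 ± 0.12 and 0.47 ± 0.13 in red cells. Kcnj16 also rose in green cells (0.57 ± 0.12), where Kcnj10 passed after quantile normalization (0.42 ± 0.13) but not under all 3 scalings. As deposited, Kcnj16 read 5.76 on every E18.5 green and double labeled array.

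Of the 12 two-pore leak channels tested, 2 rose in red and 1 in green cells, with median differences over the 12 genes of 0.03 and -0.06. These counts do not set the leak channels apart from all genes tested, where 10.6% and 13.3% rose. Kcnk18 rose by 0.48 ± 0.13 in red and 0.62 ± 0.13 in green cells. Kcnk9, an acid-sensitive leak channel of relay neurons, had quantile-normalized values of 6.76, 6.33 and 5.88 in E18.5 red cells, against 5.33, 5.43 and 5.27 in E14.5 red cells. In green cells it had 5.25, 5.71 and 5.60 at E18.5, against 5.63, 5.45 and 5.29 at E14.5. It rose by 0.98 ± 0.18 in red cells and differed by 0.06 ± 0.18 in green cells, with overlapping groups.

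Of the 11 calcium- and sodium-activated genes tested, 2 rose in red and 4 in green cells. Kcnt1, a sodium-activated pore, rose by 0.80 ± 0.21 in red cells and by 1.40 ± 0.21 in green cells. Without E18.5 red replicate 1, an array with a narrow spread, the difference in red cells was 0.59 and no longer passed (adjusted p 0.058). Kcnt2, its close relative, rose by 0.70 ± 0.16 in green cells and differed by 0.09 ± 0.16 in red cells (adjusted p 0.694).

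The large-conductance calcium-activated pore gene Kcnma1 had quantile-normalized values of 8.74, 8.59 and 8.70 in E18.5 green cells, against 7.68, 7.04 and 6.97 in E14.5 green cells. In red cells it had 9.10, 8.53 and 9.14 at E18.5, against 8.48, 8.66 and 8.39 at E14.5. It rose by 1.45 ± 0.20 in green cells, and in red cells the groups overlapped (0.41 ± 0.20, adjusted p 0.147). Its accessory gene Kcnmb2 rose by 1.52 ± 0.23 in green cells, with 0.34 ± 0.23 in red cells. A second, dim row that names Kcnma1 changed by -0.19 in green cells, and with the mean of both rows the rise was 0.51.

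Members lower at E18.5 passed after quantile normalization but not with values as deposited. In both colours these were the accessory genes Kcnmb3 (-0.72 in red, -0.76 in green) and Kcnmb1 (-0.59 and -0.70). Red cells added Kcnk7 and Kcnab2, and green cells Kcne1l, Kcnn1, Kcnh2, Kcnk10 and Kcne4. With values as deposited, Kcnmb3 differed by -0.15 in green cells (adjusted p 0.20). The non-coding Kcnq1ot1 differed by -0.25 ± 0.32 in red and -0.55 ± 0.32 in green cells and passed in neither.

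Markers of other cell types and states moved with stage as well. After quantile normalization, 2 of 6 progenitor genes were lower at E18.5 in red cells (Nes and Pax6) and 5 of 6 in green cells, where the proliferation gene Mki67 changed by -1.84. Of 6 general neuron genes, 2 were higher in each colour. Of 6 astrocyte genes, 0 were higher and 2 lower in red cells, and 0 were higher and 1 lower in green cells. Of 6 dopamine neuron genes, 4 were higher in red cells (Th by 2.41) and 0 in green cells. Of 5 GABAergic and prethalamic genes, Slc32a1 was higher (0.73 in red, 0.36 in green) and Dlx5 lower in red cells (-0.71). Of 5 oligodendrocyte genes, Olig1 was higher in red cells (0.86) and Sox10 lower in both colours (-0.51 and -0.37). Of 6 vascular genes, Rgs5 was higher in both colours (0.73 and 1.61), Cdh5 higher in green cells (0.58) and Kdr lower in red cells (-0.38). Of 6 microglia genes, C1qa was higher in both colours (0.49 and 0.43). The thalamic genes that were lower are given above. Hbb-y, an embryonic globin gene of red blood cells, changed by -2.0 in red cells and by -0.58 in green cells, where it did not pass. The part of these cells in the channel genes' rise was not tested.

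Red cells at E14.5 had higher levels of many potassium channel genes than green cells of the same age. Of the 81 genes, 19 passed an adjusted p of 0.05 (23.5%, against 10.2% of all genes tested). Of these, 15 were higher in red cells (18.5%, against 5.24% of all genes) and 4 were lower (4.94%, against 5.0%). The groups did not overlap for 25 of the 81 genes, 30.9%, and for 27.9% of all genes. Higher members came from every role group apart from the non-coding RNA, with 5 of 26 voltage-gated pores, 3 of 11 inward rectifiers and 3 of 11 calcium- or sodium-activated genes.

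Kcnma1 had deposited values of 8.09, 8.19 and 8.08 in E14.5 red cells, against 7.33, 6.66 and 6.6 in E14.5 green cells. It was 1.25 ± 0.15 higher in red cells (2.38-fold, adjusted p 9.3e-05). The next 2 genes by size separated the colours as clearly. Kcnj6, the G-protein-gated inward rectifier described above, had deposited values of 6.03, 6.08 and 6.24 in red cells, against 5.34, 4.68 and 5.13 in green cells, a difference of 1.06 ± 0.14 (adjusted p 0.00013). Kcnc2, a Shaw-family pore of fast-spiking neurons, had 6.53, 6.38 and 6.52 in red cells, against 5.87, 5.43 and 5.64 in green cells, a difference of 0.83 ± 0.13 (adjusted p 0.0007).

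The A-type genes followed. Kcnd2 had deposited values of 7.33, 7.02 and 7.32 in red cells, against 6.54, 6.53 and 6.39 in green cells (0.74 ± 0.13, adjusted p 0.0014). Kcnd3 was 0.52 ± 0.14 higher (adjusted p 0.03), and their partner Kcnip4 was 0.68 ± 0.16 higher (adjusted p 0.014), with red and green arrays that overlapped. Kcnt1 had 6.31, 6.44 and 6.47 in red cells, against 5.78, 5.83 and 5.52 in green cells (0.69 ± 0.12, adjusted p 0.0011). Kcnn3, a small-conductance calcium-activated pore, was 0.66 ± 0.16 higher, the leak channel Kcnk1 0.54 ± 0.13 and Kcnc4 0.53 ± 0.13. The other 5, Kcna2, Kcnab1, Kcnj8, Kcnj12 and Kcnv1, were higher by 0.34 to 0.39.

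Another small-conductance gene went the opposite way. Kcnn1 had deposited values of 5.8, 5.89 and 5.79 in red cells, against 6.50, 6.64 and 6.69 in green cells, and every green array lay above every red one. The difference was -0.78 ± 0.07 (adjusted p 7.2e-06). The auxiliary gene Kcne1l, also known as Kcne5, had 6.23, 5.92 and 6.14 in red cells, against 6.47, 6.73 and 6.84 in green cells (-0.59 ± 0.11, adjusted p 0.0021). Kcnh2, a pore of the ERG family, differed by -0.40 ± 0.11 and the silent Kcnf1 by -0.24 ± 0.07, with adjusted p of 0.032 and 0.046. Kcnh2 passed under 13 of 22 alternative settings, and Kcnf1 under 6 of 22.

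**Figure D3:**
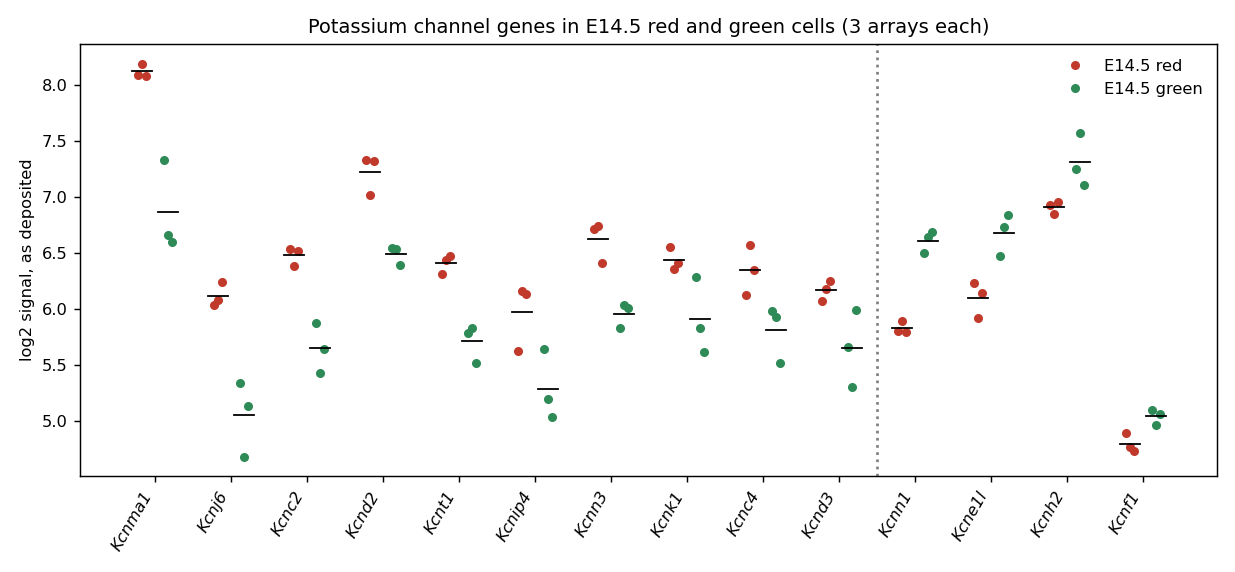
Deposited log2 signal (vertical axis) on each E14.5 array for the 10 genes with the largest rise in red cells (left of the dotted line) and the 4 genes lower in red cells (right), red beside green, with the mean of 3 arrays as a bar. Apart from Kcnip4, where 1 red array lies below 1 green array, the red and green arrays of each gene shown are separate.

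Of these 19 genes, Kcnma1, Kcnj6, Kcnc2, Kcnt1, Kcnj12, Kcnn1 and Kcne1l passed under every one of the 22 alternative settings, and Kcnd2 and Kcnj8 under 21. The other 10 passed under 6 to 19, with Kcnd3 at 14 and Kcnv1 at 12. The count fell to 11, 10 and 12 without red replicate 2, green replicate 2 or green replicate 3, and to 11 when the 6 arrays of E14.5 were fitted alone, with all 11 among the 19. With equal weights for both stages it was 7. Calls over all genes fell from 1703 to 1266, 1021, 912, 1367 and 586 in these 5 runs, in the same order. The row choice moved Kcnma1 most: its dim second row differed by -0.10, and with the mean of both rows the difference was 0.57.

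Other markers differed between these red and green cells too. Of 6 progenitor genes, 3 were lower in red cells (Mki67 by -1.17, Nes by -0.54 and Vim by -0.45), and the list averaged 6.90 to 7.0 per red array, against 7.16 to 7.31 per green array. Of the 7 thalamic genes listed, Gbx2 (-0.77), Lhx2 (-1.03) and Lhx9 (-0.89) were lower in red cells and Rora was higher (1.06). Of 6 general neuron genes, Stmn2 was higher (0.44) and Rbfox3 lower (-0.43). Of 6 dopamine neuron genes, Slc18a2 was higher (1.92), of 5 GABAergic and prethalamic genes Gad2 was higher (0.82), and of 6 astrocyte genes Slc1a3 was higher (1.01) and Slc1a2 lower (-0.79). No oligodendrocyte, microglia or vascular gene of the lists passed. The globin gene Hbb-y, the 1 of 7 erythroid genes that had a row of its own, was 1.46 higher in red cells. Their part in the channel differences was not tested.

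None of the 19 genes passed between red and green cells at E18.5. Kcnma1 averaged 9.08 in red and 9.01 in green cells (difference 0.07, 95% interval -0.50 to 0.64), Kcnt1 differed by -0.06 (-0.49 to 0.37) and Kcnj6 by 0.18 (-0.32 to 0.69). Intervals at E18.5 were wider, with a median SE of 0.17 over the members, against 0.10 at E14.5. Whether the red-green difference itself changed with stage was tested as the interaction of stage and colour.

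**Figure D4:**
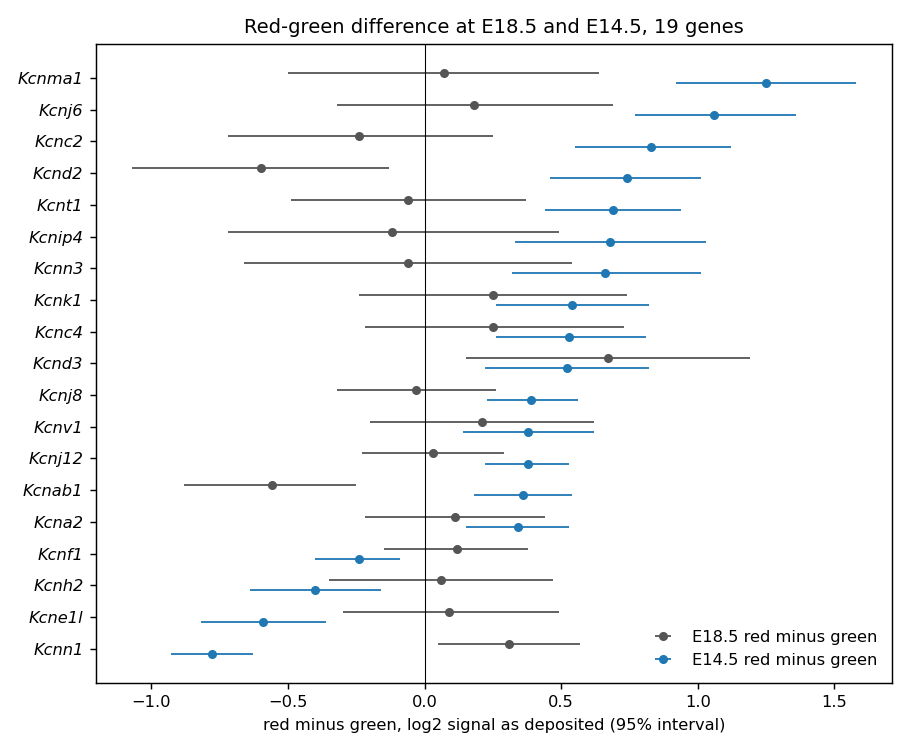
Red minus green difference in log2 signal as deposited (horizontal axis, with 95% intervals) for the 19 genes past the threshold at E14.5, at E18.5 (grey) and at E14.5 (blue). The grey intervals of 15 genes include 0; those of Kcnd2, Kcnab1 and Kcnn1 lie on the opposite side of 0 from their blue intervals, and that of Kcnd3 on the same side.

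The interaction passed for 4 of the 81 genes (4.94%, against 1.26% of all genes), 1 positive (1.23%, against 0.679%) and 3 negative (3.7%, against 0.583%). At an unadjusted p under 0.05, 18 members passed (22.2%, against 10.1%). A positive value means that the E18.5 minus E14.5 change was larger in red than in green cells. Kcnn1 had an interaction of 1.1 ± 0.13 (adjusted p 0.00064). It had quantile-normalized values of 6.64, 6.56 and 6.69 in E18.5 red cells, against 6.19, 6.29 and 6.18 in E14.5 red cells. In green cells it had 6.33, 6.35 and 6.19 at E18.5, against 6.88, 7.02 and 7.05 at E14.5. It was thus higher in green cells at E14.5 and 0.31 ± 0.12 higher in red cells at E18.5, the second difference with an adjusted p of 0.70.

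Kcnd2 had an interaction of -1.19 ± 0.17 (adjusted p 0.0025), with deposited values at E18.5 of 8.78, 9.54 and 9.52 in red cells, against 9.97, 9.84 and 9.84 in green cells. At E18.5 every red array was below every green array (-0.60 ± 0.22, adjusted p 0.617), the opposite order to E14.5. Kcnab1 had an interaction of -0.93 ± 0.17 (adjusted p 0.013), and Kcnip1 of -0.70 ± 0.16 (adjusted p 0.043). Kcnn1 and Kcnd2 passed under every alternative run. Kcnab1 was lost without any single E18.5 green replicate (adjusted p up to 0.066), and Kcnip1 passed under only 8 of 22 alternatives.

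Kcnc2 (-0.97, adjusted p 0.055), Kcnmb2 (-1.17, 0.118), Kcnma1 (-1.04, 0.124) and Kcnk9 (0.92, 0.125) had changes of similar size that did not pass. Without the pair of arrays of narrow spread, 8 members passed, which added Kcnc2, Kcnma1, Kcnmb2 and Kcnn3. Interaction calls over all genes then went from 210 to 465. The progenitor gene Mki67 had an interaction of 1.51, and 3 of 6 dopamine neuron genes had one too (Th 2.13, Slc6a3 2.23 and Nr4a2 1.04), as did Hbb-y (-1.42). Their part in these 4 results was not tested.

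**Figure D5:**
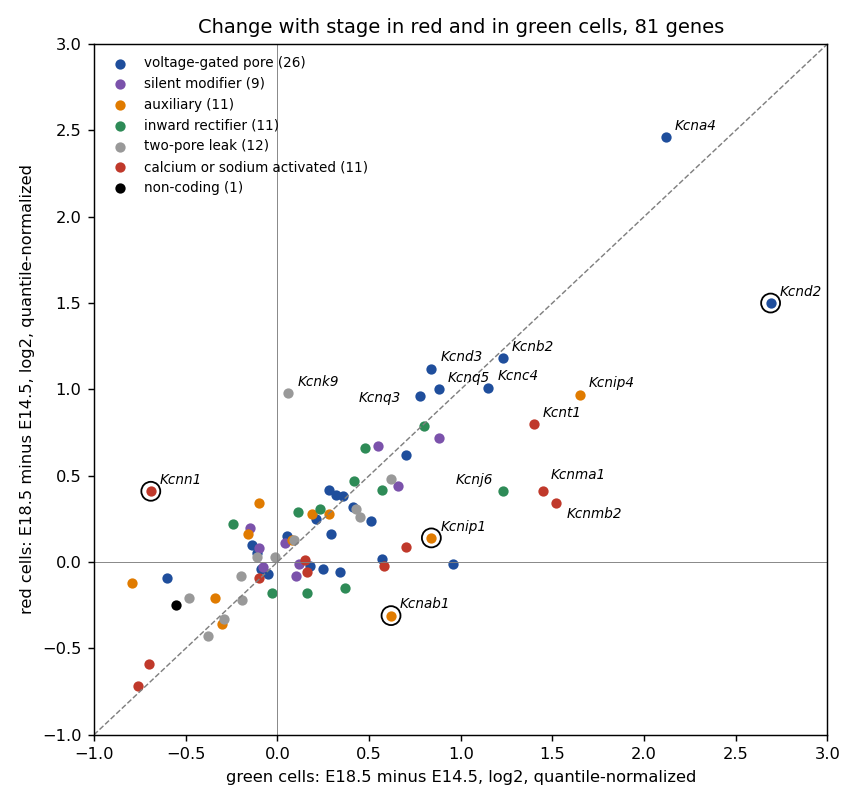
E18.5 minus E14.5 difference in quantile-normalized log2 signal in green cells (horizontal axis) and red cells (vertical axis) for the 81 genes tested, coloured by role, with the line of equal change dashed and the 4 genes past the interaction test ringed. Kcna4 and Kcnd2 lie far from the origin in both colours, and Kcnn1 is above 0 in red cells and below 0 in green cells.

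Within E18.5 no potassium channel gene passed an adjusted p of 0.05 in limma, for double labeled against red, double labeled against green or red against green cells. Over all genes, 0.0481% passed in the first comparison (0.024% in each direction), 0.0% in the second and 0.265% in the third. At an unadjusted p under 0.05, 6, 3 and 10 members passed (7.41%, 3.7% and 12.3%, against 2.55%, 3.12% and 6.17% of all genes). The groups did not overlap for 9, 12 and 22 members in these comparisons (11.1%, 14.8% and 27.2%, against 4.18%, 8.15% and 15.3% of all genes). For any difference among the 3 populations, 9 members had an unadjusted p under 0.05, 11.1%, against 4.08% of all genes, and 0 passed after adjustment, against 0.0962%.

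Between red and green cells, Kcnk9 had the most positive difference of the 81 members, with deposited values of 5.58, 5.87 and 5.91 in double labeled cells, 6.95, 6.58 and 6.15 in red cells and 5.47, 5.91 and 5.82 in green cells. Each red array lay above every double labeled and green array. Red cells differed from green cells by 0.83 ± 0.21 (adjusted p 0.179), and double labeled cells from red cells by -0.77 ± 0.21 (adjusted p 0.718). Kcnd3 differed by 0.67 ± 0.24 and Kcna1 by 0.47 ± 0.15 between red and green cells, with adjusted p of 0.617 and 0.438.

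Lower values in red cells were measured for Kcna3, a Shaker-family pore, with 7.36, 7.71 and 7.70 in double labeled cells, 7.11, 7.42 and 7.40 in red cells and 7.83, 8.0 and 8.0 in green cells. All green arrays lay above all others, and red cells differed from green cells by -0.64 ± 0.14 (adjusted p 0.094). Kcnip1 had 7.20, 7.37 and 7.60 in double labeled cells, 6.96, 6.92 and 6.93 in red cells and 7.82, 7.53 and 7.42 in green cells (red minus green -0.65 ± 0.14, adjusted p 0.10). Kcnab1 had 6.37, 6.49 and 6.26 in double labeled cells, 5.87, 6.00 and 5.98 in red cells and 6.56, 6.49 and 6.50 in green cells (red minus green -0.56 ± 0.15, adjusted p 0.207). For Kcnab1 and Kcnip1, all double labeled arrays lay above all red arrays. The most negative difference was that of Kcnmb2, with deposited values of 6.14, 7.17 and 7.22 in double labeled cells, 6.99, 6.27 and 6.80 in red cells and 7.43, 7.69 and 7.59 in green cells (red minus green -0.88 ± 0.27, adjusted p 0.418).

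Against green cells, the smallest p-values of double labeled cells belonged to Kcnt2 (-0.55 ± 0.19), Kcnmb2 (-0.72 ± 0.27) and Kcna3 (-0.35 ± 0.14) on the lower side, and to Kcnk7 (0.40 ± 0.21), Kcnk1 (0.43 ± 0.23) and Kcna1 (0.27 ± 0.15) on the higher side, each with an adjusted p of 0.983. Against red cells the smallest beside Kcnk9 were Kcnip1 (0.45 ± 0.14), Kcnab1 (0.42 ± 0.15), Kcnd2 (0.49 ± 0.22), Kcnd3 (-0.58 ± 0.24) and Kcnq5 (-0.30 ± 0.13), each with an adjusted p of 1.0. Among the inward rectifiers, the smallest p for any difference among the populations was that of Kcnj11, a pore of ATP-sensitive channels, which averaged 5.89 in double labeled, 6.31 in red and 5.94 in green cells (unadjusted p 0.13, adjusted p 0.994 in limma). Without double labeled replicate 1, 3 members passed between red and green cells, all lower in red: Kcna3 (adjusted p 0.018), Kcnip1 (0.028) and Kcnmb2 (0.044). Calls over all genes in that comparison then went from 44 to 115.

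The same E18.5 red cells differed in genes of other neuron types. Of 6 dopamine neuron genes, 4 had higher levels in the red population than in the green one (Slc6a3 by 2.03, Th by 2.01, Nr4a2 by 1.26 and Ddc by 0.88). The list averaged 6.76 to 6.84 per array in double labeled cells, 7.62 to 7.94 in red cells and 6.36 to 6.55 in green cells. Of 7 thalamic genes, Gbx2 and Lhx9 were lower in red than in green cells (-2.07 and -0.99). Whether the order of Kcnk9, Kcna3, Kcnip1 or Kcnab1 follows these genes was not tested.

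A fixed list of 18 genes outside the Kcn symbols held mostly partner proteins of potassium channels, with some genes of other channels (Pex5l, Nalcn), and all 18 were tested. At E14.5, 5 were higher in the red population and 2 lower, where 5.24% of all genes tested were higher and 5.0% lower. The higher ones were Lgi1 (0.99) and Adam22 (0.42), which act together at synapses and with Shaker-family channels, Cntnap2 (0.86), which clusters those channels on axons, Dpp6 (0.58), an accessory subunit of Shal-family channels, and Lrrc55 (0.61), an accessory subunit of the Kcnma1 channel. Lower were Pex5l (-0.70), an accessory subunit of HCN channels, and Cntn2 (-0.65), an axonal adhesion protein that partners Cntnap2. Nalcn, a sodium leak channel, did not pass at E14.5 and was higher with stage in both colours (0.91 and 1.24). After quantile normalization, 9 were higher and 0 lower at E18.5 than at E14.5 in red cells, and 10 were higher and 2 lower in green cells. Among all genes tested, 13.7% were higher and 15.6% lower in red cells, and 16.8% and 18.9% in green cells. Dpp10, a relative of Dpp6 with the same partner pores, changed by 2.58 in red and 2.77 in green cells, and Cntnap2 by 1.79 and 2.40. Abcc8, the sulphonylurea receptor that surrounds ATP-sensitive Kcnj pores, changed by 1.44 and 1.27. Within E18.5, 0 of the 18 passed in any comparison of populations.

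The span of the genes was described without a test. The median span of the 15 members higher in red cells at E14.5 was 152.3 kb, against 30.9 kb for the other 66 tested members, in RefSeq annotation. All genes higher in red cells at E14.5 had a median span of 64.3 kb, against 18.3 kb for the other genes tested. Members that rose with stage in green cells spanned a median of 191.4 kb, against 24.1 kb for the rest, and all genes that rose there 32.6 kb, against 17.9 kb. In red cells the medians were close for members, 36.2 and 32.2 kb, and 27.4 and 18.5 kb for all genes tested. The part of gene length was not tested.

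Some members are neighbours in the genome. Kcna3, Kcna2 and Kcna10 lie next to each other on chromosome 3, and Kcna5, Kcna1 and Kcna6 on chromosome 6. Of the first trio, Kcna2 was higher in E14.5 red cells (0.34 ± 0.09) and Kcna3 rose with stage in green cells (0.34 ± 0.08). Of the second, Kcna6 rose with stage in both colours (0.62 ± 0.17 and 0.70 ± 0.17), and its second row changed by 0.09 and 0.18. The neighbours Kcnj9 and Kcnj10 on chromosome 1 both rose in red cells, while in green cells Kcnj9 rose and Kcnj10 did not under all 3 scalings. On chromosome 11, Kcnip1 rose in green cells, where Kcnmb1, whose span lies within that of Kcnip1, was lower after quantile normalization. Kcnk16, next to the untested Kcnk5, and Kcnj5, next to the untested Kcnj1, did not rise. Kcnj6, next to Kcnj15 on chromosome 16, and Kcnj16, next to Kcnj2 on chromosome 11, rose beside a member that was not tested.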

How the data were processed

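The authors deposited log2 signals per transcript cluster of 15 Affymetrix arrays, made with Affymetrix Expression Console per the submitters' processing notes; version, algorithm and array background steps are not given in the sources used here. Per the labels, the input was 10 ng of total RNA from sorted cells and the amplification kit was Nugen's Ovation Pico WTA (System V2). Of 33794 rows, 23521 named 1 gene, 1814 several and 8459 none; 4 rows that name a channel gene beside another gene were not used. By Entrez identifier 23328 rows matched RefSeq GRCm38.p6, used for names, spans and start sites.

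The deposited log2 values of 16635 genes (mean above 5.07) were fitted in limma 3.58.1 (R 4.3.3) with 1 mean per group. There was 1 variance weight per stage (0.647 at E18.5, 1.92 at E14.5 as deposited), since E18.5 red and double labeled arrays varied more. Their mean correlation with group mates was 0.937 to 0.964, against 0.983 to 0.985 for E18.5 green and 0.984 to 0.992 for E14.5 arrays. E18.5 green arrays thus share a weight that their own spread did not call for. Tests were two-sided and adjusted by Benjamini and Hochberg over all genes. Stages were compared after quantile normalization; as deposited, E18.5 exceeded E14.5 by a median of 0.596 in red and 0.605 in green cells. SEs come from the model, with n = 3 arrays per group, and the number of arrays limits the precision. The procedure was tested on simulated data. Figures used Python 3.11.15 and matplotlib 3.10.9.

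Replicate numbers were checked by correlating deviations from group means. Double labeled and red cells at E18.5 gave the highest values (0.669, 0.496 and 0.487), the first of them between the 2 arrays of narrow spread. Double labeled and green cells gave 0.373, 0.414 and 0.047. Red and green cells gave 0.465, 0.406 and 0.058 at E18.5 and 0.069, 0.217 and 0.265 at E14.5. These values do not settle which groups were paired. The main fit entered no pairing for any comparison, and the replicate block was an alternative.

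Named with values were members past the threshold within a stage or in the interaction (up to 10 per direction), the 3 with the smallest p in a direction where fewer passed, the 12 with the largest change per stage comparison among those past all 3 scalings, those with the smallest p per role, and members that passed with rows that differ in sign. Other members with values were chosen after their values were seen. Members, lists and rules were chosen with earlier results of these data known. Alternatives were the filter, weights, block, scaling, row choice and each array left out.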

Additional observations from a re-analysis of the deposited data

Results flagged for a closer look

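The change between stages differed between red and green cells for 4 members by the test of the interaction itself. The value is the E18.5 minus E14.5 change in red cells minus that in green cells, on quantile-normalized log2 values with 3 arrays per group. It was 1.1 for Kcnn1, -1.19 for Kcnd2, -0.93 for Kcnab1 and -0.7 for Kcnip1, with adjusted p from limma of 0.00064, 0.0025, 0.013 and 0.043. Kcnn1 changed by 0.41 in red and -0.69 in green cells, Kcnd2 by 1.5 and 2.69, Kcnab1 by -0.31 and 0.62, and Kcnip1 by 0.14 and 0.84. The causes were not tested.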

How the results depend on the processing

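Of 19 members past the threshold in red against green cells at E14.5, 7 passed with no weights and 11 with the arrays of that stage alone; leaving out 1 array gave 10 to 19. In red against green cells at E18.5, where 0 passed, 3 passed with no weights, 3 without red and double labeled replicate 1 together, 1 after quantile normalization (Kcna3) and 1 with the replicate block (Kcna3); leaving out 1 array gave 0 to 3. The test of any difference at E18.5 went to 3 without that pair of arrays. The interaction count of 4 became 8 without that pair, and 2 to 6 with 1 array left out. Calls over all genes moved too when that pair was left out. They went from 44 to 179 for red against green cells at E18.5, from 16 to 158 for any difference and from 210 to 465 for the interaction. With values as deposited, 76 members were higher with stage in red cells and 71 in green cells. Most genes passed on that scaling, 12350 and 12520 of the 16635 tested, in both directions together. Kcnq1ot1 turned to 0.11 in green cells with values as deposited (adjusted p 0.76). The counts under all 3 scalings stayed within 1.5 times when an array was left out. They ranged from 16 to 23 in red cells and from 22 to 29 in green cells, and were 21 and 33 without the pair of narrow arrays. Without that pair, the same counts over all genes went from 1755 to 2659 in red cells and from 2206 to 3115 in green cells. With the replicate block, 18 passed at E14.5, 23 and 33 in red and green cells with stage, 6 in the interaction and 0 in double labeled against red cells. Calls over all genes with that block were 2164, 4568, 4775, 380 and 22, in the same order. Of the alternatives for single named genes, 1366 kept direction and side of the threshold, 75 lost and 10 gained the call, and 1 reversed. Over all genes, red against green at E18.5 gave 102 calls with no weights and 44 with weights, and at E14.5 586 and 1703. Signal near background limits the 7 untested genes and also some called members, whose deposited E14.5 means lay under the cut of 5.07. Kcnf1 averaged 4.80 in red and 5.04 in green cells. In green cells Kcnj6 averaged 5.05, Kcnj8 4.72 and Kcnv1 4.94. Risers under the cut at E14.5 are named above.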
